A study of Homo sapiens with 8 samples.

Results

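The genes described here build or take apart the cornified layer of stratified epithelium. They are the gene names on the array that begin with SPRR, that are LCE, KLK or TGM followed by a digit, or that are IVL, FLG, FLG2, LOR, RPTN, CRNN, HRNR, TCHH or CNFN. The rule took 59 of 43317 gene names and 73 of 58201 gene probes. By family they were 15 kallikreins, 17 late cornified envelope genes, 11 small proline-rich genes, 7 transglutaminases and 9 other envelope or S100-fused genes.

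When a squamous cell matures, it replaces its membrane with a shell of cross-linked protein. Involucrin (IVL) is laid down early, loricrin, the small proline-rich proteins (SPRR) and the late cornified envelope proteins (LCE) are added to it, and transglutaminases (TGM) join them by bonds between glutamine and lysine. Filaggrin (FLG) packs the keratin filaments within. Kallikreins (KLK) are secreted serine proteases, of which KLK5 and KLK7 cut the junctions that hold the outermost cells together so that they can be shed.

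RNA came from SAS cells (SAS/GFP in the study's text), an established line of human tongue squamous cell carcinoma, here a derivative that expresses green fluorescent protein. The study asked which miRNAs alter the response to cisplatin. The cells, not given the drug for these arrays as far as the labels say, were transfected at 25 nM with 1 of 3 mimics (of miR-629-3p, of miR-210-3p, or of miR-874-3p) or with the control miRNA that the study calls NC, and each of the 4 groups has 2 arrays. The labels give 48 h between transfection and extraction, and the study's text gives a shorter time. All groups share 1 line and the transfection itself, no untransfected cells were arrayed, and nothing states that the 2 arrays of a group came from separate cultures, so the tests measure only the spread between these arrays.

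The mature strands, from RefSeq on GRCh38.p14, are shown because they are what distinguishes the groups. Capitals mark the seed, bases 2 to 8 from the 5′ end, and the 3 seeds differ.
miR-629-3p, chr15:70079387-70079408 (minus strand): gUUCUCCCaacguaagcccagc
miR-210-3p, chr11:568112-568133 (minus strand): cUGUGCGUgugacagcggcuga
miR-874-3p, chr5:137647582-137647603 (minus strand): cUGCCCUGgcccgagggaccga
The DNA letters that pair with these seeds are GGGAGAA for miR-629-3p, ACGCACA for miR-210-3p and CAGGGCA for miR-874-3p. In that order they occur in 0.747%, 0.131% and 0.387% of all gene probes, which are 60 bases long and lie in the transcript's sense. None of the 73 member probes holds any of the 3, which says only that these letters are not within the probed bases.

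Expression is given as the log2 of the scanner's processed signal minus the 75th percentile of that array, so that 0 is that percentile. Between 41.8% and 49.8% of probes per array were well above background by the scanner's own flag, the most after miR-629-3p. Among probes that no array detected, the median value was -4.97 and -4.93 in NC cells, -5.42 and -5.45 after miR-210-3p, -5.21 and -4.92 after miR-874-3p and -5.68 and -5.53 after miR-629-3p. On the slide the arrays of miR-874-3p and NC share the lower row, and the other 4 share the upper. Differences between those rows therefore cannot be told apart from differences between the groups in them, whereas miR-629-3p against miR-210-3p and miR-874-3p against NC are comparisons within a row.

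The cells were checked against marker genes. All 7 squamous markers (KRT5, KRT14, KRT6A, KRT17, TP63, SFN and DSG3) and all 4 simple epithelial markers were detected on all 8 arrays, while COL1A2, COL3A1, LUM and TYR were detected on none. Of markers of other cells, PTPRC, CDH5, VWF, PDGFRB and PMEL read well above background on all 8 arrays, COL1A1 on 6, CD3E on 4, PECAM1 on 2 and MLANA on 1. Against NC, 1 of the 7 squamous markers rose and 2 fell with miR-629-3p, beside 11.3% and 6.0% of all genes. With miR-210-3p 4 of the 7 fell, beside 1.93% of all genes, and none passed the test with miR-874-3p. Of the 4 simple epithelial markers, 3 fell with miR-629-3p (KRT8, KRT18 and KRT19), beside the same 6.0%. EPCAM rose with miR-210-3p, where 4.83% of all genes were called higher. PDGFRB was higher with both of these mimics and VWF with miR-629-3p. The part of these shifts in the results below was not tested.

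Of the 59 members, 29 passed the filter, which asked that some group have both its arrays well above background and that no array lack a value. These were 9 kallikreins, 6 LCE genes, 8 SPRR genes, IVL, FLG, CNFN, TGM1, TGM2 and TGM6, and 22 of them were detected on all 8 arrays. A further 25 were detected on no array by any probe: KLK3, KLK4, KLK11, KLK12, KLK14, KLK15, LCE1B, LCE2A, LCE2B, LCE2C, LCE2D, LCE3C, LCE3D, LCE4A, CRNN, FLG2, HRNR, LOR, RPTN, TCHH, SPRR2B, SPRR2G, SPRR4, TGM3 and TGM4. LCE3A was seen on 7 arrays and left out because its spot on the second NC array carried an outlier flag. LCE3E and TGM7 were seen on 2 arrays, and LCE6A and TGM5 on 1. The line therefore gave signal for involucrin, filaggrin and some small proline-rich and LCE genes, and none for loricrin, repetin, cornulin, hornerin, trichohyalin or epidermal transglutaminase 3.

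Across the 4 groups, 13 of the 29 members (44.8%) passed limma's F test at an adjusted p under 0.05, against 25.7% of the 21283 genes tested. They were KLK1, KLK5, KLK6, KLK7, KLK8, KLK9, KLK13, IVL, FLG, LCE1E, LCE5A, SPRR2F and TGM2. Of these, LCE5A entered the test only because it was bright on the miR-629-3p arrays. The same 13 passed in at least 1 of the 6 comparisons of pairs of groups, and the other 16 in none. These comparisons hold 36 calls of members, of which 5 were kept with each of the 8 arrays left out in turn. The 5 were KLK1 and KLK8 for miR-629-3p against miR-874-3p, and LCE5A for miR-629-3p against NC and both other mimics.

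The mimic of miR-629-3p was accompanied by the most changes against NC, 4 members higher and 4 lower. Higher were IVL, LCE1E, LCE5A and SPRR2F, in a comparison where 11.3% of all genes were called higher. LCE5A passed the filter only through the miR-629-3p arrays, and among the 22 members detected on all 8 arrays 3 were higher. Lower were the 4 kallikreins KLK1, KLK7, KLK8 and KLK13, where 6.0% of all genes were called lower. The median difference of the 29 members was -0.02, beside 0.07 for all genes.

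With miR-210-3p, TGM2 was higher than in NC (4.83% of all genes were called higher) and FLG and KLK5 were lower (1.93% called lower). With miR-874-3p no member passed limma's test against NC, in a comparison with 0.216% of genes called higher and 0.197% lower. At an unadjusted p under 0.05, 3 members were higher there and none lower, and the 3 were KLK5, KLK6 and KLK9. These comparisons with NC share both NC arrays.

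Between the mimics, 8 members differed for miR-629-3p against miR-210-3p. FLG, IVL, LCE1E and LCE5A were higher, beside 10.1% of all genes, and KLK1, KLK8, KLK13 and TGM2 lower, beside 11.7%. For miR-629-3p against miR-874-3p 11 of the 29 differed. IVL, LCE1E, LCE5A and SPRR2F were higher, beside 11.5% of all genes, and 7 kallikreins lower, beside 5.82%. For miR-210-3p against miR-874-3p TGM2 was higher, beside 7.90% of all genes, and FLG, KLK5, KLK8, KLK9 and KLK13 were lower, beside 3.22%.

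**Figure D1:**
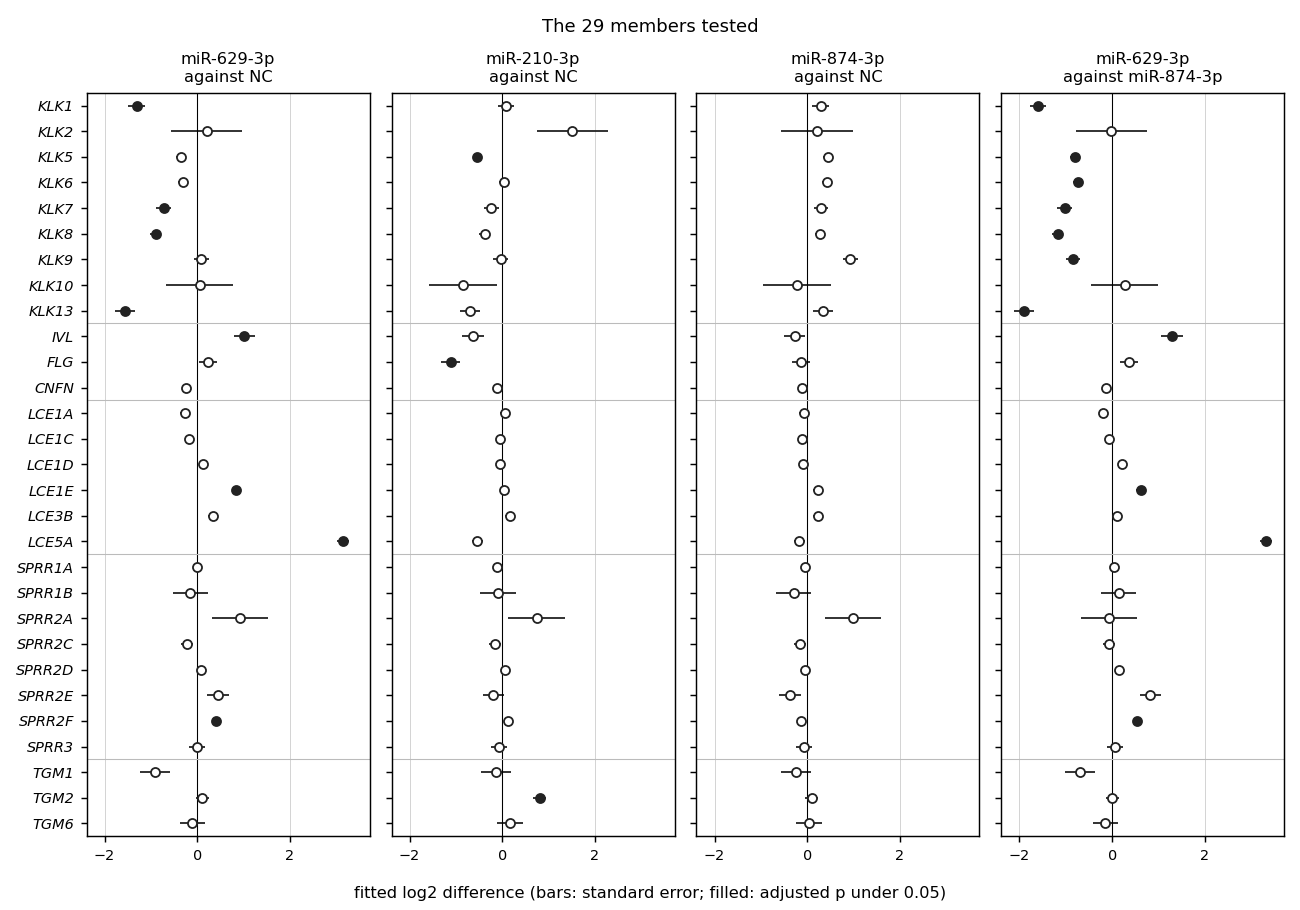
Fitted log2 differences (x axis) of the 29 members tested (y axis, grouped by family) in 4 comparisons, with bars for the standard error and filled points for an adjusted p under 0.05. With miR-629-3p the filled kallikreins lie left of 0 and the filled envelope genes right of it, no point is filled for miR-874-3p against NC, and 7 kallikreins are filled left of 0 for miR-629-3p against miR-874-3p. LCE5A was dim outside miR-629-3p, so its fitted value is not a measured fold.

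The kallikreins were described first, since they include most of the members that fell. The 15 genes lie side by side on chromosome 19, where their probes span chr19:51322447-51581312 (hg19). Of the 9 tested, 7 were detected on all 8 arrays (KLK1, KLK5, KLK6, KLK7, KLK8, KLK9 and KLK13). In each of these 7 the mean was highest after miR-874-3p. The lowest mean was in the miR-629-3p group for 5 and in the miR-210-3p group for KLK5 and KLK9.

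KLK8, also called neuropsin, is a trypsin-like protease of the upper epidermis. Its probe read 4.78 and 5.09 in NC cells, 4.50 and 4.61 after miR-210-3p, 5.20 and 5.22 after miR-874-3p and 4.02 and 4.05 after miR-629-3p. No 2 groups overlapped, and miR-629-3p was the lowest. The difference of miR-629-3p from NC was -0.90 (SE 0.12, adjusted p = 0.00998), or 1.87-fold lower, and from miR-210-3p it was -0.52 (SE 0.12, adjusted p = 0.031). Against miR-874-3p, KLK8 was lower by 2.26-fold with miR-629-3p (adjusted p = 0.00544) and by 1.58-fold with miR-210-3p (adjusted p = 0.028). The call of miR-629-3p against NC was lost without either miR-629-3p array, that against miR-210-3p without any 1 array of both groups, and that of miR-210-3p against miR-874-3p without any 1 array of the 3 mimics.

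KLK13 had the widest spread of group means among the 7. Its values were -1.60 and -0.95 in NC cells, -2.05 and -1.89 after miR-210-3p, -0.83 and -1.06 after miR-874-3p and -2.83 and -2.85 after miR-629-3p. The NC arrays overlapped those of miR-874-3p, and both other groups lay below them. The fitted difference of miR-629-3p was -1.57 from NC (SE 0.22, adjusted p = 0.0118), -0.87 from miR-210-3p (adjusted p = 0.0406) and -1.90 from miR-874-3p (adjusted p = 0.00716), the last a 3.72-fold difference. That of miR-210-3p from miR-874-3p was -1.02 (adjusted p = 0.0414). The calls against NC and miR-874-3p were lost without either miR-629-3p array, and those of miR-629-3p against miR-210-3p and of miR-210-3p against miR-874-3p when any array of the 3 mimics was left out. The other 2 probes named KLK13 did not pass the filter.

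KLK1, tissue kallikrein, releases kinin from kininogen. It read -1.72 and -1.73 in NC cells, -1.52 and -1.77 after miR-210-3p, -1.32 and -1.55 after miR-874-3p and -3.27 and -2.81 after miR-629-3p. The low group here was miR-629-3p alone, and the other 3 groups lay above it and overlapped or nearly met. The fitted differences of miR-629-3p were -1.31 from NC (SE 0.18, adjusted p = 0.0115), -1.39 from miR-210-3p (adjusted p = 0.00763) and -1.60 from miR-874-3p (adjusted p = 0.00701). Without the first miR-629-3p array or without the second NC array the call against NC was lost.

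KLK7, the chymotrypsin-like enzyme of the stratum corneum, was at -0.85 and -0.68 in NC cells, -0.97 and -1.05 after miR-210-3p, -0.53 and -0.40 after miR-874-3p and -1.27 and -1.72 after miR-629-3p. After miR-629-3p it was 1.65-fold below NC (log2 -0.73, SE 0.16, adjusted p = 0.0355) and 2.03-fold below miR-874-3p (adjusted p = 0.0149). The groups did not overlap in either comparison. The call against NC was lost without the second miR-629-3p array, either miR-210-3p array or either NC array.

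KLK5, the trypsin-like enzyme that activates KLK7, was at 1.94 and 2.15 in NC cells, 1.43 and 1.58 after miR-210-3p, 2.48 and 2.52 after miR-874-3p and 1.63 and 1.75 after miR-629-3p. Here miR-210-3p was the lowest group. Its fitted difference from NC was -0.54 (SE 0.11, adjusted p = 0.045), a call that was lost when any array of miR-629-3p, miR-210-3p or NC was left out. Both miR-210-3p (-0.99, SE 0.11, adjusted p = 0.00956) and miR-629-3p (-0.81, adjusted p = 0.00931) were below miR-874-3p.

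KLK6, or neurosin, read 6.47 and 6.68 in NC cells, 6.65 and 6.56 after miR-210-3p, 7.03 and 6.96 after miR-874-3p and 6.20 and 6.30 after miR-629-3p. The miR-210-3p and NC arrays overlapped, with miR-629-3p below and miR-874-3p above. Only the outer pair of groups passed the test, with miR-629-3p below miR-874-3p by a fitted -0.74 (SE 0.10, adjusted p = 0.00966). A second KLK6 probe gave -0.84 for the same comparison (adjusted p = 0.016).

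In KLK9 the arrays of 3 groups overlapped and 1 group stood apart. Its values were -1.91 and -1.69 in NC cells, -1.80 and -1.87 after miR-210-3p and -1.60 and -1.82 after miR-629-3p, against -1.05 and -0.69 after miR-874-3p. Fitted values below miR-874-3p were -0.84 for miR-629-3p (SE 0.16, adjusted p = 0.0214) and -0.97 for miR-210-3p (adjusted p = 0.0227). The difference of miR-874-3p from NC was 0.93 (SE 0.16), with an adjusted p of 0.0859, the smallest of any member in that comparison.

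KLK2 and KLK10 were dim and did not pass in any comparison. KLK2 read -0.55 on the second miR-210-3p array and between -3.62 and -2.75 on the other 7, so 1 array set its group mean. KLK10 ran from -3.46 to -1.54, and its pairs of arrays differed by up to 1.83.

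**Figure D2:**
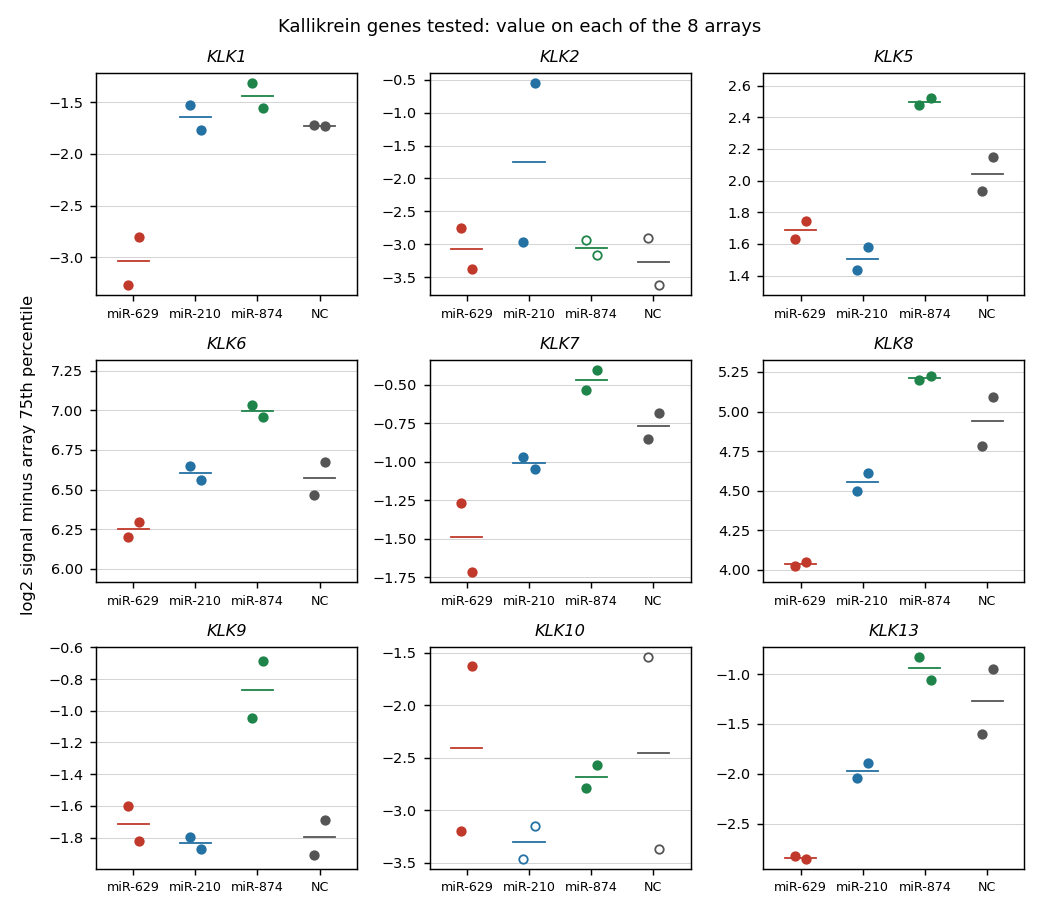
Log2 signal relative to the array's 75th percentile (y axis) for the 9 kallikrein genes tested, with 2 arrays per group (points) and the group mean (line). Filled points are groups with both arrays well above background, each panel has its own scale, and in the 7 genes detected on all 8 arrays the miR-874-3p mean is the highest.

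By comparison, of the 9 kallikreins tested 7 were called lower after miR-629-3p than after miR-874-3p and none higher, and 1 of the 9 lay above 0. Their median difference was -0.84, and that of all genes 0.08. Against NC the median was -0.35 for miR-629-3p, where 3 of 9 lay above 0 and 4 were called lower. It was -0.24 for miR-210-3p, where 3 of 9 lay above 0 and 1 was called lower, and 0.30 for miR-874-3p, where 8 of 9 lay above 0 and none was called. For miR-210-3p against miR-874-3p 1 of the 9 lay above 0 and 4 were called lower, with a median of -0.62. For miR-874-3p against NC, the 7 detected on all 8 arrays were above 0 under each background correction and scaling, and with the deposited values. They were also above 0 without any 1 array of either group. The other settings left these fitted differences as they were. Limma called 2 of the 7 (KLK5 and KLK6) after normexp background correction, 1 (KLK6) with a trend in the prior and none under the other alternatives.

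The 7 differences of miR-629-3p from miR-874-3p were negative under each background correction and scaling run and with the deposited values. They were also negative without any 1 array of either group. The other settings do not alter these fitted differences, whose median stayed at -1.02, and so say nothing on the sign. The number called depended on the arrays, and was 3 without the first miR-629-3p array, 2 without the second, 2 with only the 4 arrays of both groups in the fit, and 0 by the methods' t-test after adjustment. Since these groups lie in different slide rows, row and group cannot be told apart here. Within the upper row, miR-629-3p lay below miR-210-3p in KLK1, KLK8 and KLK13, and without the first miR-210-3p array none of the 3 was called.

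Among proteins that act beside the kallikreins, 15 of 19 listed proteases, inhibitors and substrates were tested, and against NC 2 rose and 2 fell with miR-629-3p, beside 11.3% and 6.0% of all genes. Among the 11 detected on all 8 arrays, 2 rose and 1 fell. The largest changes were in SERPINB3, CTSV and F2RL1. SERPINB3, an inhibitor of cysteine proteases, read -2.69 and -2.18 with NC and -4.91 and -5.57 with miR-629-3p, where it was not well above background. It was at least 2.36-fold lower, with 1 of the 2 NC arrays well above background. Its adjusted p of 0.00605 is of limma's fitted difference and not of this bound. Cathepsin V (CTSV) fell by 0.59 on the log2 scale (adjusted p = 0.00791), and F2RL1, the protease-activated receptor that KLK5 can cleave, rose by 0.55 (adjusted p = 0.012).

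With miR-210-3p 1 of the 15 fell, beside 1.93% of all genes, and none of the 11 detected on all 8 arrays. SERPINB13, another member of that inhibitor family, was at least 1.73-fold lower than in NC, with both miR-210-3p arrays and 1 NC array not well above background. Its adjusted p of 0.0494 is of limma's fitted difference, which uses those dim readings, and not of the bound. None of the 15 passed with miR-874-3p, and 3 had an unadjusted p under 0.05. SPINK5, which encodes the main inhibitor of the skin kallikreins, gave fitted differences from NC of 0.21 for miR-629-3p, 0.12 for miR-210-3p and -0.01 for miR-874-3p, none past the test, and was singled out here for its function after its values were seen.

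Involucrin is the first scaffold of the envelope. IVL read -1.64 and -1.98 in NC cells, -2.72 and -2.17 after miR-210-3p, -2.22 and -1.96 after miR-874-3p and -0.95 and -0.64 after miR-629-3p. Both miR-629-3p arrays lay above the 6 others. The fitted difference was 1.02 from NC (SE 0.23, adjusted p = 0.0386), 1.65 from miR-210-3p (adjusted p = 0.00948) and 1.29 from miR-874-3p (adjusted p = 0.0204). The call against NC was lost without any 1 of the 4 arrays of these groups and with arrays centred on their median, whereas the call against miR-210-3p, within a slide row, was lost by array only without the second miR-629-3p array.

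Filaggrin gave -1.28 and -1.0 in NC cells, -2.46 and -2.05 after miR-210-3p, -1.48 and -1.07 after miR-874-3p and -0.90 and -0.92 after miR-629-3p by the brightest of its 3 probes. The miR-210-3p arrays lay below all others. The fitted differences of miR-210-3p were -1.11 from NC (SE 0.20, adjusted p = 0.0375) and -0.98 from miR-874-3p (adjusted p = 0.0385), and miR-629-3p was 1.34 above miR-210-3p (adjusted p = 0.0107). The other 2 FLG probes did not show this, with -0.48 and 0.15 for miR-210-3p against NC, neither past the test. Leaving out any array of miR-629-3p, miR-210-3p or NC ended the call against NC. Cornifelin (CNFN), a further envelope protein, lay between 1.45 and 1.74 on the 8 arrays and passed in no comparison.

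Of the 17 LCE genes, 6 were tested and LCE1E and LCE5A were called, both higher with miR-629-3p. Among the 5 detected on all 8 arrays LCE1E alone was called, beside 11.3% of all genes higher against NC. LCE1E read -0.05 and -0.17 in NC cells, -0.04 and -0.09 after miR-210-3p, 0.10 and 0.13 after miR-874-3p and 0.84 and 0.61 after miR-629-3p. Both miR-629-3p arrays stood above the 6 others. It was higher by a fitted 0.84 than with NC (SE 0.10, adjusted p = 0.00856), by 0.79 than with miR-210-3p (adjusted p = 0.00739) and by 0.61 than with miR-874-3p (adjusted p = 0.0164). Without the first miR-629-3p array the call against NC was lost.

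LCE5A was well above background on the 2 miR-629-3p arrays and on no other, and passed the filter only through them. It read -5.15 and -5.11 in NC cells, -5.65 and -5.69 after miR-210-3p, -5.47 and -5.14 after miR-874-3p and -1.92 and -2.06 after miR-629-3p. The 6 low readings lie near the median of undetected probes on their arrays. LCE5A was therefore at least 1.86-fold higher with miR-629-3p than with NC, at least 2.69-fold higher than with miR-210-3p and at least 2.13-fold higher than with miR-874-3p, each measured against the dimmest signal that counts as well above background on those arrays. Since the filter kept the gene through its bright group alone, the adjusted p is given from limma on all genes with no filter on detection, and was 0.0072 against NC, 0.00519 against miR-210-3p and 0.00423 against miR-874-3p.

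The other 4 LCE genes tested, LCE1A, LCE1C, LCE1D and LCE3B, were detected on all 8 arrays and passed in no comparison. Their fitted differences between miR-629-3p and NC ran from -0.27 to 0.33. The LCE1D and LCE1A probes share a run of 36 of 60 bases and those of LCE1C and LCE1A a run of 29, so these 3 readings may include one another's transcripts. No other probe of a different member shared a run of 15 or more bases with that of LCE1E or LCE5A.

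**Figure D3:**
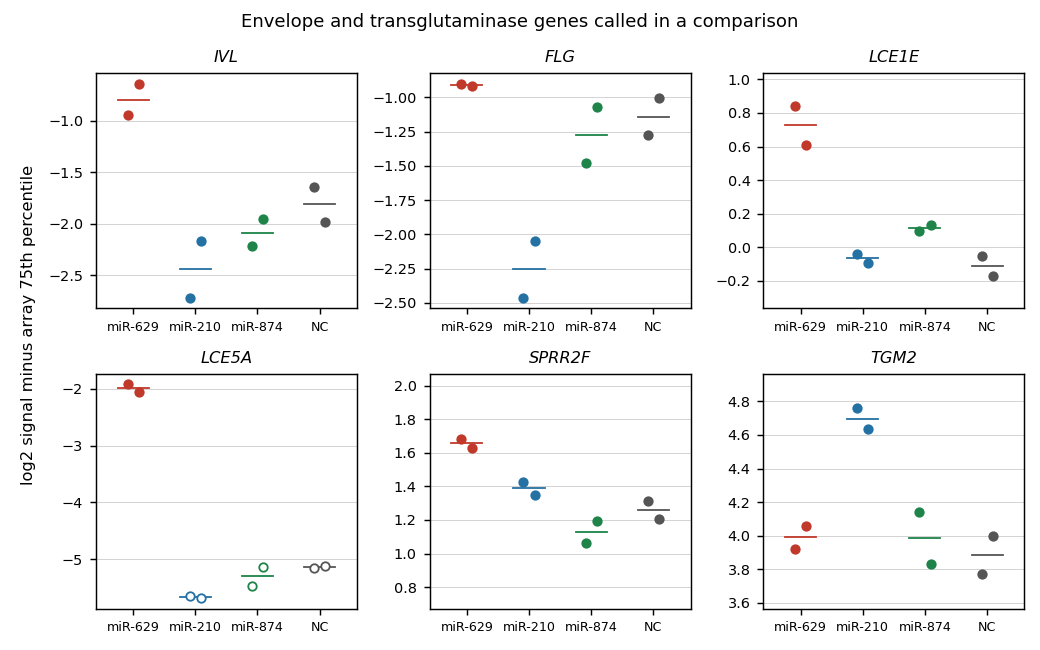
Log2 signal relative to the array's 75th percentile (y axis) for the 6 envelope and transglutaminase genes that passed in at least 1 comparison, with 2 arrays per group (points) and the group mean (line). Open points are groups in which at least 1 array was not well above background, each panel has its own scale, and LCE5A is filled for miR-629-3p alone.

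Small proline-rich proteins bridge other envelope proteins. Of 8 tested, SPRR2F alone was called, higher with miR-629-3p, beside 11.3% of all genes called higher against NC and 11.5% against miR-874-3p. It read 1.31 and 1.20 in NC cells, 1.43 and 1.35 after miR-210-3p, 1.06 and 1.19 after miR-874-3p and 1.68 and 1.63 after miR-629-3p. Both miR-629-3p arrays were above the 6 others. The fitted difference was 0.40 from NC (SE 0.08, adjusted p = 0.0323) and 0.53 from miR-874-3p (adjusted p = 0.0157). The call against NC was lost when any array of miR-629-3p, miR-210-3p or NC was left out and under centring on the median. Its probe shares a run of 28 bases with that of SPRR2E, so the 2 genes are not fully separated.

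SPRR1A, SPRR2C, SPRR2D and SPRR3 were detected on all 8 arrays and SPRR2E on 7. SPRR1A spanned 2.61 to 2.76 over the 8 arrays, SPRR2D 1.30 to 1.53 and SPRR3 -2.05 to -1.64. SPRR1B and SPRR2A were dim, with detection on 5 and 3 arrays. None of these 7 passed in any comparison, and against NC with miR-629-3p they ran from -0.23 to 0.92, the upper end being SPRR2A, whose first NC array read -5.22 and its second -3.48.

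Among the 3 transglutaminases tested, TGM2, the widely expressed tissue enzyme, alone was called, beside 4.83% of all genes higher with miR-210-3p against NC. It read 3.77 and 4.0 in NC cells, 4.76 and 4.63 after miR-210-3p, 4.14 and 3.83 after miR-874-3p and 3.92 and 4.06 after miR-629-3p. The miR-210-3p arrays lay above all others, and the other 3 groups overlapped. It was 1.76-fold higher with miR-210-3p than with NC (log2 0.81, SE 0.14, adjusted p = 0.0344), 1.64-fold higher than with miR-874-3p (adjusted p = 0.0354), and the fitted difference of miR-629-3p from miR-210-3p was -0.71 (adjusted p = 0.0228).

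A second TGM2 probe gave a different order. For miR-210-3p against NC it gave 0.35 (adjusted p = 0.118 in the fit of every probe), and for miR-629-3p against miR-874-3p -0.53 (adjusted p = 0.0329), where the first probe gave 0.01. With both probes miR-629-3p lay below miR-210-3p, the second giving -0.56 (adjusted p = 0.0248). Leaving out any array of miR-629-3p, miR-210-3p or NC ended the call of the first probe against NC. TGM1, the membrane-bound enzyme that builds the envelope of keratinocytes, was detected on 7 arrays and ranged from -3.57 to -2.06, and its difference of -0.92 between miR-629-3p and NC did not pass the test (adjusted p = 0.109). TGM6 ranged from -2.24 to -1.56 and passed in no comparison.

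Upstream sequence is shown for 3 envelope genes and 2 kallikreins that moved, to set the 2 families side by side. RefSeq's table (GRCh38.p14) held 50 of the 59 members, LOR under its present symbol, with 60 start sites in all. KLK1, KLK8, LCE1B, SPRR2C, SPRR2D, SPRR2E, TGM1, TGM2 and TGM6 had no entry. Each line gives the 250 bases before the start, and capitals mark matches on either strand to the TATA box, searched as TATAAA, to the AP-1 motif, searched as TGANTCA, or to the GC box, searched as GGGCGG. No marked motif overlaps another in these 5.
IVL, chr1:152908296-152908545 (plus strand): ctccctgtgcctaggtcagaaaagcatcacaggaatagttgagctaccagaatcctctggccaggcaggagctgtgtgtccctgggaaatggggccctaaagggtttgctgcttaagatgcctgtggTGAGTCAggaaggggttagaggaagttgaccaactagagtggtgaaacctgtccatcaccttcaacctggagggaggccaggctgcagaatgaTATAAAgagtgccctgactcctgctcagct
FLG, chr1:152325240-152325489 (minus strand): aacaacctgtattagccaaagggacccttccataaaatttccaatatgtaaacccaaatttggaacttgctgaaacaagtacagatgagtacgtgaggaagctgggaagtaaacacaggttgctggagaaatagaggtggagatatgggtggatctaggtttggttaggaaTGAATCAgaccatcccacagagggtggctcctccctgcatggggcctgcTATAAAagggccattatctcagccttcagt
LCE5A, chr1:152510553-152510802 (plus strand): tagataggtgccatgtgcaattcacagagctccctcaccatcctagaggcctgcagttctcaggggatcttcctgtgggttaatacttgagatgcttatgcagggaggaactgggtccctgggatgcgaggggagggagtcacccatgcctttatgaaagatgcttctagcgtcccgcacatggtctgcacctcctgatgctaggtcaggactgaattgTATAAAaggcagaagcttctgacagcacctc
KLK5, chr19:50953039-50953288 (minus strand): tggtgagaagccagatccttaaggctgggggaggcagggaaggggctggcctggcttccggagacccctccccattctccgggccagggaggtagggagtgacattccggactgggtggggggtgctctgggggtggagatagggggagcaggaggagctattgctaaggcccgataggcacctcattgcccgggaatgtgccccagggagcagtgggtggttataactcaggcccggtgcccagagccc
KLK6, chr19:50969592-50969841 (minus strand): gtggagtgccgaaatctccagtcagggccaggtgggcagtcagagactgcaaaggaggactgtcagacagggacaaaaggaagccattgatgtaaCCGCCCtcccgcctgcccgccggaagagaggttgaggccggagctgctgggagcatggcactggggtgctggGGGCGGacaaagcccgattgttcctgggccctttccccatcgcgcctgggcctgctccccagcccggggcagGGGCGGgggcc

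IVL and FLG hold a TATA box from -30 to -25 and an AP-1 match further up, LCE5A holds a TATA box from -31 to -26, KLK6 holds 3 GC boxes and KLK5 none of the 3 motifs. These examples do not stand for all members. LCE1E holds TATAAA from -220 to -215 and no other match, and CNFN, an envelope gene, holds GC boxes alone. Among the small proline-rich genes 87.5% of the 8 upstream stretches hold TATAAA and 75% hold TGANTCA, against 10.7% and 6.57% of all 35116. Among the LCE genes 47.1% of 17 hold TATAAA and none TGANTCA or GGGCGG. Of the 22 kallikrein stretches, some of which overlap because a gene has several starts, 13.6% hold TATAAA, none TGANTCA and 54.5% GGGCGG, the last beside 42.6% of all. These are matches of letters, and bear on no factor's binding.

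Other parts of the same programme were followed through lists. Of 14 partners of the envelope, such as periplakin, envoplakin, cystatin A and S100 proteins, 11 were tested and none passed limma's test against NC with any mimic. At an unadjusted p under 0.05 there were 4 for miR-629-3p, 1 for miR-210-3p and 1 for miR-874-3p, and the medians were 0.17, -0.06 and 0.05 in the same order. Between the mimics, 3 of the 11 were higher and 1 lower for miR-629-3p against miR-210-3p, beside 10.1% and 11.7% of all genes. Their median there was 0.38, beside -0.01 for all genes. Against miR-874-3p, 1 was higher and 2 lower with miR-629-3p, beside 11.5% and 5.82%, and none passed with miR-210-3p. Of 11 keratins of late differentiation, 6 were tested, and KRT80 alone passed against NC, higher by a fitted 0.62 with miR-629-3p (adjusted p = 0.0275). In that comparison 11.3% of all genes were called higher. With the other mimics none passed, and 3 (miR-210-3p) and 1 (miR-874-3p) had an unadjusted p under 0.05. KRT1 and KRT2 were detected on no array.

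Of 17 genes for the lipids that seal the barrier, 13 were tested, and with miR-629-3p 4 rose and 1 fell against NC, beside 11.3% and 6.0% of all genes. Among the 9 detected on all 8 arrays, 3 rose and 1 fell. ABCA12, which loads lipid into lamellar granules, rose by a log2 difference of 2.06 (SE 0.33, adjusted p = 0.0154). ALOXE3, a lipoxygenase of the epidermis, rose by 0.93 (adjusted p = 0.0369), and SPTLC3, a subunit of the enzyme that starts sphingolipid synthesis, fell by 0.90 (adjusted p = 0.0286). None passed limma's test with miR-210-3p or miR-874-3p, where 4 and 2 had an unadjusted p under 0.05. The median over the 13 was 0.19 with miR-629-3p, beside 0.07 for all genes.

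Of 29 regulators of squamous differentiation, 28 were tested, and with miR-629-3p 9 rose and 1 fell against NC, beside 11.3% and 6.0% of all genes. Among the 27 detected on all 8 arrays, 8 rose and 1 fell. PRDM1 (BLIMP1), a repressor that acts in the granular layer, read -0.30 and -0.62 with miR-629-3p, and between -2.45 and -1.97 on the other 6 arrays. It rose by 1.69 against NC (SE 0.18, adjusted p = 0.00625). ZNF750, which keratinocytes need for terminal differentiation, read -0.65 and -1.22 in NC cells, -2.31 and -2.66 after miR-210-3p, -0.82 and 0.04 after miR-874-3p and 0.59 and 0.39 after miR-629-3p. It rose by 1.42 with miR-629-3p (adjusted p = 0.0406), while its value of -1.55 with miR-210-3p did not pass (adjusted p = 0.0537). MAF, a factor of late differentiation, was not well above background on either NC array and was at least 2.26-fold higher with miR-629-3p. It is the 1 of the 9 that was not detected on all 8 arrays. It passed the filter only through a mimic group. Its call in limma's filtered fit (adjusted p = 0.0212) is therefore not independent of the filter and does not test the bound.

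Beyond the 3 largest, and named after their values were seen, the others that rose with miR-629-3p were GRHL3 (1.36), KLF4 (1.30), JAG1 (1.26), EHF (0.76), OVOL1 (0.60) and CEBPB (0.46), each as a log2 difference from NC. NOTCH3, a receptor of the pathway that drives cells from the basal layer, fell by 1.08 (adjusted p = 0.0179). With miR-210-3p 3 rose and 1 fell, beside 4.83% and 1.93% of all genes. NOTCH3 fell by 1.34 (adjusted p = 0.0203), VDR, the vitamin D receptor, rose by 0.94 (adjusted p = 0.00728), and GRHL1, a grainyhead factor, rose by 0.66 (adjusted p = 0.0331). With miR-874-3p none of the 28 passed limma's test, and 5 had an unadjusted p under 0.05. The median over the list was 0.11 for miR-629-3p, 0.01 for miR-210-3p and 0.01 for miR-874-3p, beside 0.07, 0.09 and -0.00 for all genes.

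**Figure D4:**
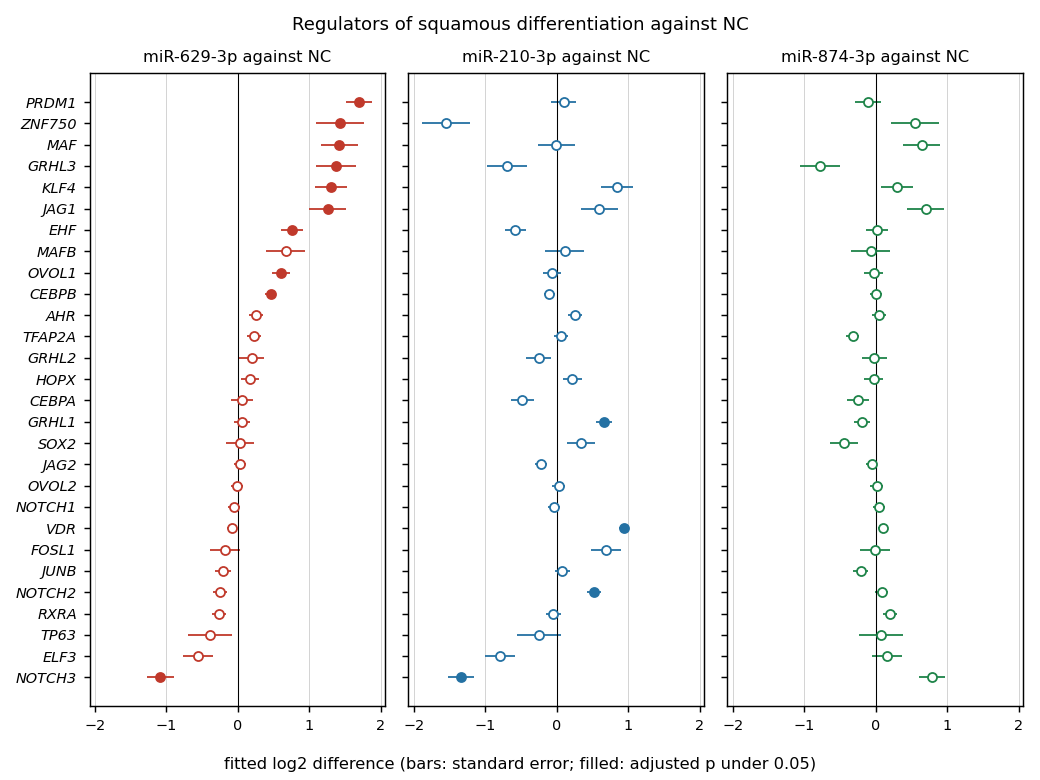
Fitted log2 differences from NC (x axis) of the 28 regulators tested (y axis, ordered by the miR-629-3p value), with bars for the standard error and filled points for an adjusted p under 0.05. With miR-629-3p 9 points are filled right of 0 and 1 left of it, for miR-210-3p the counts are 3 and 1, and for miR-874-3p no point is filled. MAF was dim in NC, so its fitted value is not a measured fold.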

How the data were processed

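RNA of SAS cells was measured on Agilent 1-colour arrays, 2 for each of 4 groups taken from the sample labels. For each array the authors deposited intensity values from Agilent Feature Extraction 11.5.1.1, whose processed signal is corrected for background and not scaled between arrays, with flags for outliers and for signal well above background. A table of log2 values that the authors deposited equalled the log2 signal minus the 75th percentile up to a constant below 0.01 in size and served as an alternative. Nothing was pooled, and columns of no sample numbered 0.

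The log2 of the processed signal was scaled by subtracting the 75th percentile over an array's gene probes. Spots flagged as outliers (87 to 346 per array) were left out, and no spot was saturated. Probes had to carry a value on all 8 arrays and be well above background on both arrays of some group, and the brightest stood for each gene name, which left 21283 genes. Differences were fitted with limma 3.58.1 (R 4.3.3) on all 8 arrays, with 4 residual and 1.7 prior degrees of freedom, and called at a Benjamini-Hochberg adjusted p under 0.05 over all genes. The fit was tested on simulated data. The number of arrays limits the precision. A fold against a group in which neither array was well above background is a bound, set against the dimmest detected signal of each array.

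The members, gene lists and tests were chosen with earlier results of these data known. Every tested member is named, with its value on every array if it was called, and from each list the 3 largest called changes against NC. A few listed genes are not reported here. Probe coordinates are hg19, as in the deposited files. Mature miRNA and upstream sequences are RefSeq's on GRCh38.p14. Alternatives covered background correction, scaling, filters, probes, the samples fitted, the replicate block, the methods' t-test and each array left out. Differences between arrays with the same replicate number correlated between groups at -0.106 to 0.034. These values gave no sign of pairing by number but cannot exclude it, and the labels state none.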

Additional observations from a re-analysis of the deposited data

How the results depend on the processing

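Values of single members were compared under settings that used all arrays. The main fit made 36 calls of members in the 6 comparisons of pairs. Most values compared here, and with 1 array left out, were therefore not calls. Counts that kept their side of the threshold do not measure how stable the calls were. Of 2423 values, 2289 kept their side of the threshold, 107 lost a call, 26 gained one and 1 reversed. Direction was compared only where the main fit or the alternative made a call. The 1 was SPRR2A for miR-629-3p against NC, at -0.55 (adjusted p = 0.0466) with signals floored at the dimmest detected signal. In that setting both NC readings (-5.22 and -3.48) were replaced by the dimmest detected signals of their arrays (-2.90 and -2.87). The miR-629-3p readings (-3.52 and -3.35) lay above those of their own arrays (-3.74 and -3.60) and were kept. The reversed value is therefore not a measured difference. With 1 array left out, 1275 of 1392 were unchanged in this sense, 111 lost a call and 6 gained one. Normexp background correction with an offset of 50 shrank the differences, so that the median of the 7 kallikreins for miR-629-3p against miR-874-3p was -0.54 rather than -1.02, with all 7 still called. Without a filter on detection, the members called were 17 (4 higher, 13 lower) for miR-629-3p against NC and 0 for miR-210-3p against NC. They were 6 for miR-629-3p against miR-874-3p, 1 for miR-210-3p against miR-874-3p and 3 across the 4 groups. That setting also tested genes detected on no array. Over all probes so undetected, the median was -5.68 and -5.53 with miR-629-3p and -4.97 and -4.93 with NC. With only the arrays of the groups compared, the members called were 5, 0, 3 and 0 for the same 4 comparisons of pairs of groups. With the replicate number as a block they were 5 for miR-629-3p against NC, 1 for miR-210-3p against NC, 3 for miR-210-3p against miR-874-3p and 8 across the 4 groups, and a crossed pairing of the miR-874-3p and NC arrays, added after seeing the data, left 0. The methods' t-test after adjustment called 0 in each comparison except miR-629-3p against miR-210-3p, with 1, and their ANOVA 8. At an unadjusted p under 0.05 and 2-fold there were 4 for miR-629-3p against NC, 1 for miR-210-3p against NC, 4 for miR-629-3p against miR-210-3p, 6 for miR-629-3p against miR-874-3p and 1 for miR-210-3p against miR-874-3p. For miR-874-3p against NC normexp gave 2 and a trend in the prior 1.

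With each array left out in turn, the counts ran from 2 to 8 for miR-629-3p against NC, 0 to 4 for miR-210-3p against NC, 0 to 0 for miR-874-3p against NC, 3 to 8 for miR-629-3p against miR-210-3p, 4 to 12 for miR-629-3p against miR-874-3p, 0 to 5 for miR-210-3p against miR-874-3p and 2 to 13 across the 4 groups. The lowest counts came without a miR-629-3p array in the comparisons of that group and across the 4 groups, without either miR-210-3p array for miR-210-3p against miR-874-3p, and for miR-210-3p against NC without either miR-629-3p array, either miR-210-3p array or the second NC array. A lone array was then assumed to vary like the other groups. Signal near background limits KLK2, KLK10, SPRR1B, SPRR2A and TGM1. After miR-629-3p, KLK1 (-3.27 and -2.81) and KLK13 (-2.83 and -2.85) were well above background but not far above the dimmest detected signals (-3.74 and -3.60). Normexp correction moved the median of the 7 kallikreins for miR-629-3p against NC from -0.73 to -0.29.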
